A study of Caenorhabditis elegans with 11 samples.

Results

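The 9 genes described here are hlh-30, the worm counterpart of the mammalian autophagy regulator TFEB, and 8 genes of the autophagy pathway, unc-51, bec-1, atg-18, atg-7, lgg-1, lgg-2, sqst-1 and epg-5. They were chosen by name. All probe sets with a single gene symbol that matched 1 of these names were taken, which gave 15 of the 22548 probe sets tested, for 9 of 17138 genes. There were 3 for hlh-30, 2 each for bec-1, atg-18, lgg-2 and sqst-1, and 1 each for unc-51, atg-7, lgg-1 and epg-5. None was left out for a low value.

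Autophagy encloses cytoplasm, organelles or protein aggregates in a double membrane, the autophagosome, which then fuses with lysosomes so that its content is broken down. A kinase complex starts the membrane, a lipid kinase complex marks it, a conjugation system attaches ubiquitin-like proteins to it, and receptors bring cargo. In Caenorhabditis elegans, HLH-30 enters the nucleus when nutrients are scarce and activates autophagy and lysosomal genes, and autophagy genes are needed for the long life of germ line-less glp-1 mutants.

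RNA was measured on 11 Affymetrix arrays of whole hermaphrodites at day 8. Hermaphrodites of all groups carried glp-1(e2141), in which heat removes the Notch signal that keeps germ line stem cells dividing, and were held at 25 °C from the first larval stage after embryos had been raised at 15 °C. The design asks which transcripts differ in hermaphrodites that lived with males, and whether knockdown of utx-1, which encodes a histone H3 lysine 27 demethylase, alters this. Without RNAi there were 3 samples kept alone and 3 kept with males. Under utx-1 RNAi there were 3 samples kept alone and 2 kept with males, numbered 1 and 3, and 1 further sample with males had given too little RNA. Plates without males held 500 hermaphrodites, while plates with males held 250 hermaphrodites and 250 wild-type males that were removed on day 8, so the number of hermaphrodites differs with the presence of males. Each sample pooled 200 hermaphrodites. The labels name no empty-vector control and no RNAi food, so lower utx-1 and exposure to RNAi itself cannot be told apart.

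Expression is given on the log2 scale, on which a difference of 1 is a doubling. Array medians lay between 3.77 and 3.97. The utx-1 probe set 174606_at was lower in all 5 RNAi arrays (4.41 to 5.0) than in the other 6 (7.03 to 7.14). Both arrays labelled utx-1 RNAi with males stood apart. Their mean over 14 germ cell markers was 6.85 and 7.05, against 3.62 to 4.15 in the other 9 arrays, and over 11 oocyte and eggshell markers 8.03 and 8.21, against 3.10 to 4.04, although the label gives sterile worms. Their mean over 10 body wall muscle markers was lower, at 7.42 and 7.68 against 7.93 to 8.25, and intestine markers had group means of 10.00 to 10.06. The intestine mean covers opposite differences among its 8 genes. With males ges-1 was at -0.86 without RNAi and -1.25 under utx-1 RNAi, and act-5 at 0.50 and 0.44. In either RNAi state 2 of the 8 rose and 1 fell at an adjusted p below 0.05 (limma). The arrays hold RNA of whole animals, so fewer cells of a type and less RNA per cell cannot be told apart. Results below that use the utx-1 RNAi arrays with males rest on these 2 arrays with high germ line RNAs.

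The gene hlh-30 encodes the bHLH transcription factor that activates autophagy and lysosomal genes. At its brightest probe set, 194161_s_at, the values were 8.46, 8.00 and 7.96 without RNAi and males, and 8.19, 8.03 and 8.33 with males. Under utx-1 RNAi they were 7.85, 7.75 and 7.86 without males, and 7.72 and 8.02 with males. The arrays with and without males overlapped in both RNAi states, while the RNAi arrays lay below the arrays without RNAi within each male state. The 2 other probe sets, 174862_at at 5.93 to 6.73 and the dim 190299_at at 3.15 to 3.62, correlated with it over the 11 arrays at r of 0.72 and 0.85.

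**Figure D1:**
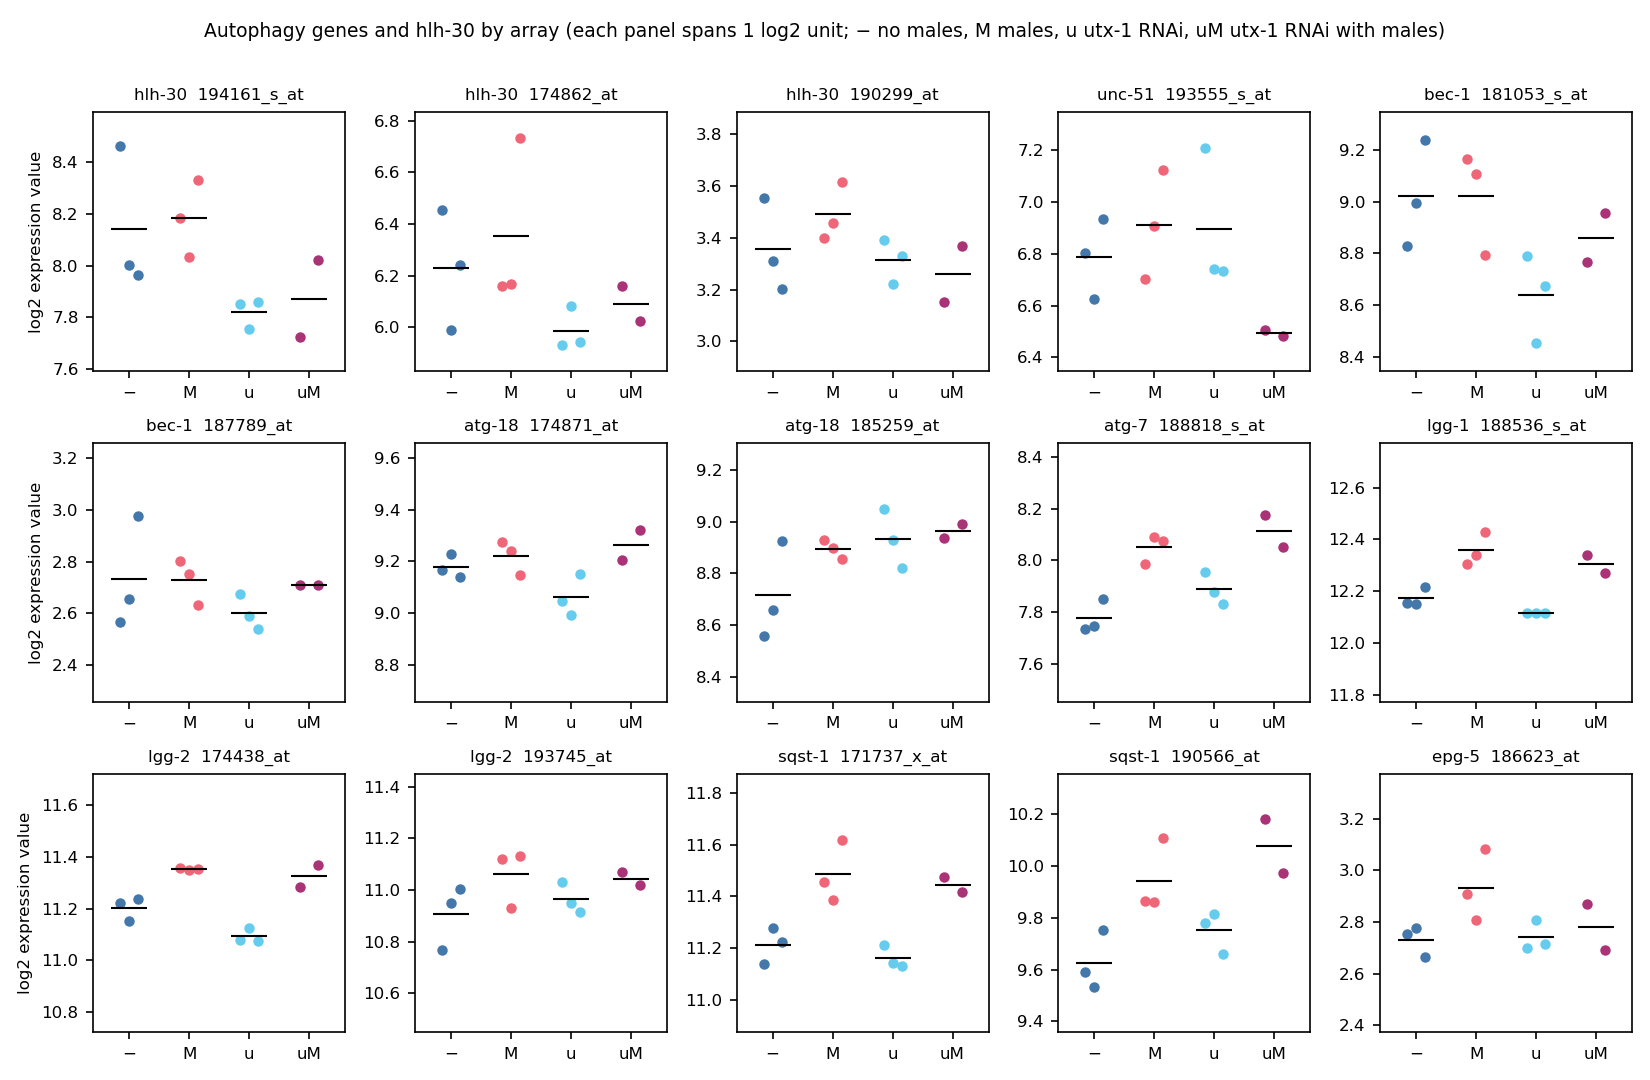
Log2 expression values of the 15 probe sets, 1 point per array and a line at the group mean, in the 4 groups; each panel spans 1 log2 unit, so heights can be compared. The 3 hlh-30 probe sets have lower means under utx-1 RNAi, and both sqst-1 probe sets, atg-7, lgg-1 and lgg-2 174438_at have all 5 arrays with males above all 6 without.

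The males effect on hlh-30 at this probe set was 0.04 ± 0.13 (standard error of the fit) without RNAi, with a 95% interval of -0.25 to 0.33, and 0.05 ± 0.15 under utx-1 RNAi, with an interval of -0.27 to 0.37. Neither passed the threshold of an adjusted p below 0.05 (limma, adjusted p = 0.894 and 0.858), and the intervals leave room for a change of about the size seen in other genes below. The utx-1 RNAi effect was -0.32 ± 0.13 without males (adjusted p = 0.253) and -0.31 ± 0.15 with males (adjusted p = 0.195). Neither passed the threshold. Averaged over both male states, a contrast added after the values had been seen, the difference was -0.32 ± 0.10 and lay just outside the threshold (adjusted p = 0.0535). It was past the threshold when replicate 3 of no RNAi without males (adjusted p = 0.0417) or replicate 3 of RNAi with males (0.0364) was left out. At 174862_at the same average was -0.25 ± 0.11 (adjusted p = 0.155) and at 190299_at -0.14 ± 0.08 (0.258).

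By mean level, hlh-30 stood in the order no RNAi with males (8.18), no RNAi without males (8.14), RNAi with males (7.87) and RNAi without males (7.82), and no pair of neighbours differed past the threshold (adjusted p = 0.210 to 0.894). Of 17138 genes at their brightest probe set, the 5 whose values followed hlh-30 most closely over the 11 arrays were dnj-24 (r = 0.955), col-41 (0.947), C34F11.1 (0.935), alg-1 (0.927) and C14A6.7 (0.925). Among them dnj-24, at 2.53 to 3.02, C34F11.1, at 2.77 to 3.36, and C14A6.7, at 2.49 to 2.87, were dim, and col-41 was at 3.70 to 4.45. By Spearman's rho 0 of these 5 were among the nearest 5, so this list depends on the measure. With the 8 autophagy genes hlh-30 correlated only between -0.20 (atg-7) and 0.46 (lgg-2), over points that share groups and arrays.

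The gene unc-51 encodes the kinase that starts autophagosome formation, the counterpart of yeast Atg1 and mammalian ULK1. Its probe set 193555_s_at read 6.80, 6.63 and 6.93 without RNAi and males, 6.70, 6.91 and 7.12 with males, 7.21, 6.74 and 6.73 under utx-1 RNAi without males, and 6.51 and 6.48 under utx-1 RNAi with males. The last 2 arrays were below all other 9. The males effect was 0.12 ± 0.14 without RNAi (adjusted p = 0.645) and -0.40 ± 0.16 under utx-1 RNAi (adjusted p = 0.0946), and the utx-1 RNAi effect with males was -0.42 ± 0.16 (adjusted p = 0.103). None of these passed the threshold, but centring each array on its median put both latter differences past it (-0.52, adjusted p = 0.0179, and -0.49, adjusted p = 0.0339). The difference between the 2 males effects, the interaction, was -0.52 ± 0.21 (adjusted p = 0.183). The part of the germ line RNAs of these 2 arrays in the lower unc-51 values was not tested.

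The gene bec-1, the counterpart of yeast Atg6 and mammalian Beclin 1, encodes a subunit of the lipid kinase complex that marks the forming membrane. At 181053_s_at the values were 8.83, 9.0 and 9.24 without RNAi and males, 9.16, 9.11 and 8.79 with males, 8.79, 8.45 and 8.67 under utx-1 RNAi without males, and 8.77 and 8.96 under utx-1 RNAi with males. Without males the RNAi arrays lay below the others with no overlap, by 0.38 ± 0.13, which did not pass (adjusted p = 0.174). The average over both male states was -0.27 ± 0.10 (adjusted p = 0.0833), and it passed without replicate 3 of no RNAi with males (0.0390). The males effects were 0.00 ± 0.13 and 0.22 ± 0.15. The dim probe set 187789_at read 2.54 to 2.98 and followed the first at r of 0.81.

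The gene atg-18 encodes a protein that binds the lipid made by this complex. Its 2 probe sets disagreed. Over the 11 arrays they correlated at r of -0.11, with 174871_at at 8.99 to 9.32 and 185259_at at 8.56 to 9.05. In the 2 utx-1 RNAi arrays with males 174871_at was above the 3 without males, by 0.20 ± 0.08 (adjusted p = 0.110), and 185259_at was 0.22 ± 0.10 higher under utx-1 RNAi without males (adjusted p = 0.280). Neither passed the threshold, and the same differences at the other probe set were 0.03 ± 0.11 and -0.12 ± 0.07.

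The gene atg-7 encodes the E1-like enzyme that activates the ubiquitin-like proteins for conjugation. At its single probe set, 188818_s_at, the values were 7.73, 7.75 and 7.85 without RNAi and males and 7.99, 8.09 and 8.08 with males. Under utx-1 RNAi they were 7.96, 7.88 and 7.83 without males and 8.17 and 8.05 with males. All 5 arrays with males were above all 6 without. With males and without RNAi atg-7 rose by 0.27 ± 0.07, or 1.21-fold (adjusted p = 0.0303). Under utx-1 RNAi the difference was 0.22 ± 0.08 (adjusted p = 0.0718), and the averaged males effect was a rise of 0.25 ± 0.05 (adjusted p = 0.00481). The call without RNAi was lost when replicate 1 or 2 of the group without males or replicate 2 or 3 of the group with males was left out (adjusted p = 0.0878 to 0.103). It was also lost with only the compared groups in the fit and with the replicate number as a block. The averaged rise passed under all 17 alternatives run.

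The genes lgg-1 and lgg-2 encode the ubiquitin-like proteins of the autophagosome membrane, counterparts of yeast Atg8 and mammalian GABARAP and LC3. For lgg-1 (188536_s_at) the values were 12.16, 12.15 and 12.22 without RNAi and males and 12.30, 12.34 and 12.43 with males. Under utx-1 RNAi they were 12.12, 12.11 and 12.11 without males and 12.34 and 12.27 with males. As for atg-7, the 5 arrays with males were above the 6 without. The males effect on lgg-1 was 0.18 ± 0.07 without RNAi and 0.19 ± 0.07 under utx-1 RNAi, neither past the threshold (adjusted p = 0.0947 and 0.0925), and the averaged effect was a rise of 0.19 ± 0.05 (adjusted p = 0.0144). That rise did not pass without replicate 1 of RNAi with males (a difference of 0.17), with the replicate number as a block, or with arrays centred on their medians (0.12, adjusted p = 0.0788).

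For lgg-2 the brighter probe set, 174438_at, read 11.22, 11.15 and 11.24 without RNAi and males and 11.36, 11.35 and 11.35 with males. Under utx-1 RNAi it read 11.08, 11.12 and 11.08 without males and 11.28 and 11.37 with males. Again no array without males reached the lowest with males. Under utx-1 RNAi lgg-2 rose with males by 0.23 ± 0.07, or 1.17-fold (adjusted p = 0.0381), and without RNAi the difference was 0.15 ± 0.06 (adjusted p = 0.165). The averaged effect was a rise of 0.19 ± 0.05 (adjusted p = 0.0111). The second lgg-2 probe set, 193745_at, differed by less, at 0.15 ± 0.08 and 0.08 ± 0.09, with overlapping arrays, and it followed the first at r of only 0.42. The call under utx-1 RNAi was lost when any 1 of 8 of the 11 arrays was left out, the 8 being all 5 RNAi arrays, replicates 1 and 2 of no RNAi with males and replicate 3 of no RNAi without males (adjusted p = 0.0514 to 0.204), and with centred arrays the difference was 0.11 (adjusted p = 0.228). The call under utx-1 RNAi was also lost with only the compared groups in the fit and with the replicate number as a block. The averaged rise did not pass without replicate 3 of RNAi with males (a difference of 0.17), with the replicate number as a block, or with centred arrays (0.12, adjusted p = 0.0589).

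**Figure D2:**
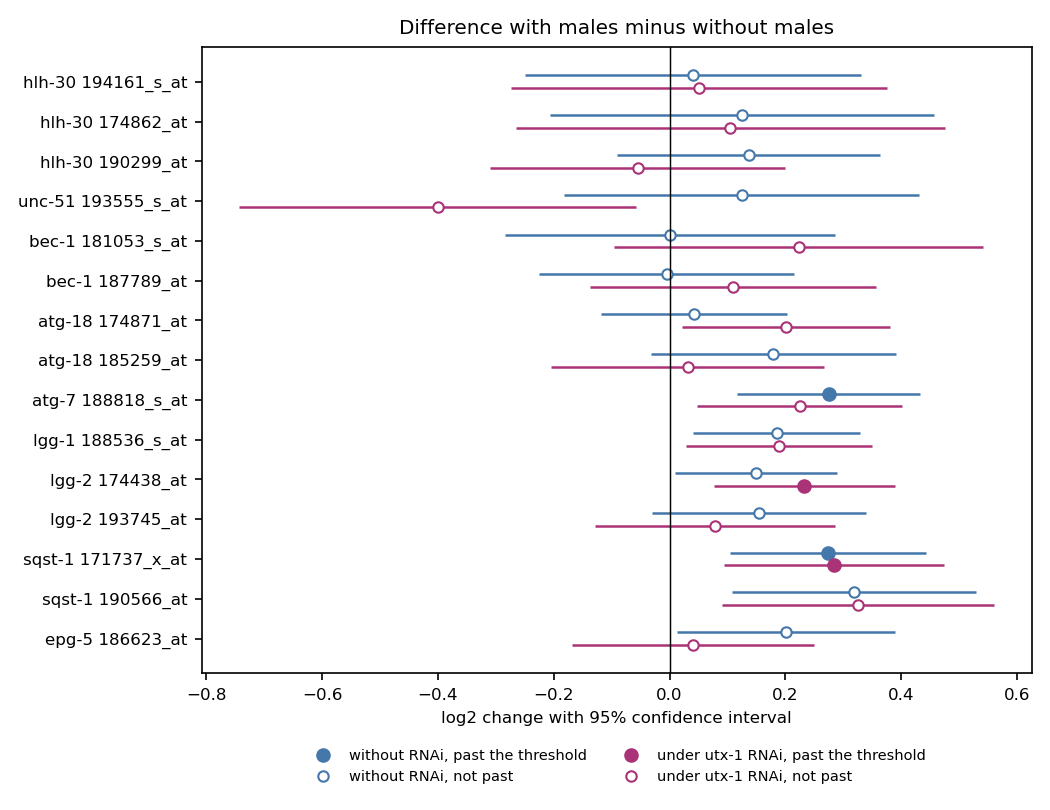
Difference in log2 value between arrays with and without males for each of the 15 probe sets, without RNAi (blue) and under utx-1 RNAi (purple), with 95% confidence intervals; filled points have an adjusted p below 0.05. The filled points are atg-7 and sqst-1 171737_x_at without RNAi and lgg-2 174438_at and sqst-1 171737_x_at under utx-1 RNAi, at 0.23 to 0.28.

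The gene sqst-1 encodes the counterpart of mammalian SQSTM1 (p62), a receptor that carries ubiquitinated cargo into autophagosomes and is itself degraded there. At 171737_x_at the values were 11.14, 11.28 and 11.22 without RNAi and males and 11.45, 11.39 and 11.62 with males. Under utx-1 RNAi they were 11.21, 11.14 and 11.13 without males and 11.47 and 11.42 with males. The groups with and without males did not overlap. The transcript rose with males by 0.27 ± 0.08 without RNAi (1.21-fold, adjusted p = 0.0412) and by 0.28 ± 0.09 under utx-1 RNAi (1.22-fold, adjusted p = 0.0366).

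At the second sqst-1 probe set, 190566_at, the values were 9.59, 9.53 and 9.75, then 9.86, 9.86 and 10.11 with males, 9.78, 9.82 and 9.66 under utx-1 RNAi, and 10.18 and 9.97 under utx-1 RNAi with males. Its differences, 0.32 ± 0.10 and 0.33 ± 0.11, were as large, and their adjusted p of 0.0522 and 0.0509 lay just outside the threshold. The averaged males effect was a rise at both probe sets, by 0.28 ± 0.06 (adjusted p = 0.00373) and 0.32 ± 0.07 (0.0057), and it passed under all 17 alternatives run at either. The 2 single-state calls at 171737_x_at were less stable. The call without RNAi was lost without any 1 array other than replicate 2 of no RNAi with males (adjusted p = 0.0510 to 0.145), and the call under utx-1 RNAi was lost without any 1 of the 5 RNAi arrays, replicate 1 of no RNAi with males or replicate 3 of no RNAi without males (0.0505 to 0.233). With centred arrays the difference under utx-1 RNAi was 0.16 (adjusted p = 0.146), and over all alternatives the calls passed in 4 of 18 without RNAi and 8 of 18 under utx-1 RNAi.

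The gene epg-5 encodes a tethering factor for the fusion of autophagosomes with lysosomes. Its single probe set, 186623_at, was dim, at 2.66 to 3.08. Without RNAi it read 2.75, 2.78 and 2.66 without males and 2.91, 2.81 and 3.08 with males, which did not overlap, and the difference of 0.20 ± 0.09 did not pass (adjusted p = 0.163). Under utx-1 RNAi the difference was 0.04 ± 0.10.

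Taking the 15 probe sets as a group, 2 rose and 0 fell with males without RNAi. Of all 22548 probe sets 5.65 percent rose and 6.15 percent fell at the same threshold, against 13.3% and 0 here. Shares over all probe sets, here and below, include dim ones and were not matched to the brightness of the 15. The median difference of the 15 was 0.15, against -0.01 over all probe sets. In 6 of the 15 the 3 arrays with males were all above the 3 without, and in 0 all below, where all probe sets had 14.4 percent wholly above and 16.9 percent wholly below. Under utx-1 RNAi 2 rose and 0 fell, which is 13.3%, close to the 11.8 percent of all probe sets that rose, while 9.03 percent fell. The median was 0.11 against -0.03. Wholly above lay 7 of 15, against 22.1 percent of all probe sets, and wholly below 1, unc-51, against 25.6 percent.

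The males effects in the 2 RNAi states share no arrays. In their average 5 of 15 probe sets, of 4 genes, rose and 0 fell, which is 33.3% against 14.4 percent of all probe sets that rose and 12.4 percent that fell. Those 5 are also the 5 whose arrays with males all lay above those without, a pattern held by 4.33 percent of all probe sets, and 5.88 percent had the opposite one. By mean level the 5 lay at percentiles 87.5 to 99.4 of all probe sets. Among probe sets with a mean of at least 4 in a group, 2992 rose in this average, against 3242 of all. Array medians of 3.77 to 3.97 lay below 4, so this filter left out many probe sets but few of the rises. The share that rose is thus larger among brighter probe sets than 14.4 percent, and 33.3% against 14.4 percent overstates how far the members stand out. The part of brightness in these shares was not tested. In the comparison without RNAi, germ cell markers had means of 3.86 without and 4.04 with males, and 2 of 14 rose, iff-1 by 1.92 ± 0.44 (adjusted p = 0.0162) and glh-1 by 0.30 ± 0.09 (0.0395), while htp-3 fell by 0.34 ± 0.09. The 6 measured sperm and male markers had means of 4.22 without and 4.51 with males, with 1 of 6 past the threshold. The part of either list in the rises of sqst-1 and atg-7 was not tested. Under utx-1 RNAi the germ cell markers had means of 3.82 without and 6.95 with males, and the part of the germ line RNAs in the rises of lgg-2 and sqst-1 was not tested.

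For utx-1 RNAi without males, 0 of 15 rose or fell, against 0.0355 percent and 0.129 percent of all probe sets, and 3 of 15 had an unadjusted p below 0.05 (hlh-30 194161_s_at, bec-1 181053_s_at and atg-18 185259_at). There 4 of 15 lay wholly below and 0 wholly above, against 14.6 percent and 7.55 percent. For utx-1 RNAi with males, 0 of 15 rose or fell, against 8.96 percent and 5.07 percent, and 1, unc-51, had an unadjusted p below 0.05. All 3 hlh-30 probe sets lay wholly below there, at differences of -0.31, -0.26 and -0.23 (adjusted p = 0.195, 0.344 and 0.216). With unc-51 this makes 4 of 15 wholly below, against 27.6 percent of all probe sets, and 1 wholly above, against 17.6 percent.

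For the interaction, 0 of 15 rose or fell, against 6.42 percent and 1.23 percent, again with unc-51 alone below an unadjusted p of 0.05. For sqst-1 171737_x_at the interaction was 0.01 ± 0.12 with an interval of -0.24 to 0.27, and for lgg-1 0.00 ± 0.10 with an interval of -0.21 to 0.22, so differences about as large as the males effects themselves lie within the intervals. In the averaged utx-1 RNAi contrast 0 of 15 rose or fell, against 7.87 percent and 6.80 percent.

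By mean level, sqst-1 171737_x_at stood in the order no RNAi with males (11.49), RNAi with males (11.45), no RNAi without males (11.21) and RNAi without males (11.16), and lgg-1 and lgg-2 174438_at had the same order. For atg-7 the order was RNAi with males (8.11), no RNAi with males (8.05), RNAi without males (7.89) and no RNAi without males (7.78). The second sqst-1 probe set, 190566_at, had the order of atg-7, at 10.08, 9.94, 9.75 and 9.63. At lgg-2 193745_at RNAi without males stood above no RNAi without males, unlike at 174438_at. No neighbours in these orders differed past the threshold. The gap between the lower group with males and the higher group without came nearest for sqst-1 171737_x_at (adjusted p = 0.0689). It was at 0.169 for atg-7, 0.220 for sqst-1 190566_at, 0.223 for lgg-1 and 0.247 for lgg-2 174438_at.

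**Figure D3:**
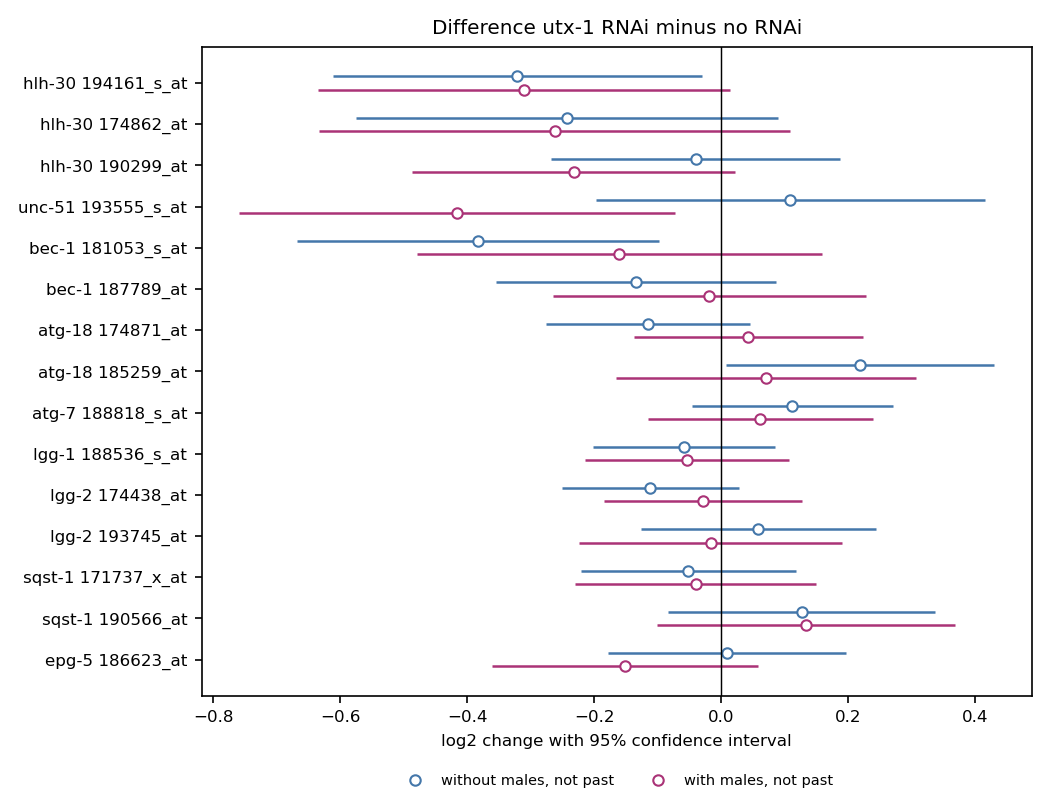
Difference in log2 value between utx-1 RNAi and no RNAi for each of the 15 probe sets, without males (blue) and with males (purple), with 95% confidence intervals. All points are open, since 0 of 15 had an adjusted p below 0.05 in either male state, and 174862_at and 194161_s_at of hlh-30 lie between -0.32 and -0.24 in both.

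The 4 genes that rose with males in the average had the following correlations over the 11 arrays at their brightest probe sets, which are a description, since genes that differ between the same groups correlate through those groups. Values of lgg-1 and sqst-1 correlated at r of 0.94, of lgg-1 and lgg-2 at 0.89, and of lgg-2 and sqst-1 at 0.81. Values of atg-7 correlated with sqst-1 at 0.79, with lgg-1 at 0.78 and with lgg-2 at 0.63. After subtraction of the group means the same 6 pairs, in this order, were at 0.63, -0.05, -0.37, 0.35, 0.67 and -0.17, so the 3 pairs with lgg-2 had no positive correlation within groups.

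The genes most like lgg-2 over the arrays were lst-4 (r = 0.982), ttr-21 (0.979) and lfi-1 (0.970), and all 3 were also the nearest by Spearman's rho. The genes most like sqst-1 were F15G9.2 (r = 0.970), rcan-1 (0.959) and bus-24 (0.958), of which F15G9.2, at 2.44 to 2.78, and bus-24, at 3.25 to 3.95, were dim. Those most like atg-7 were cls-2 (0.980), adm-2 (0.967) and Y41G9A.5 (0.964). By Spearman's rho 0 of these 3 remained among the nearest 3 for sqst-1, and 0 for atg-7, so both lists depend on the measure, as that of hlh-30 does. Of 17138 genes 152 exceeded r of 0.9 with atg-7, 97 with sqst-1 and 57 with lgg-2.

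Other autophagy genes, lysosomal genes, TOR and AMPK genes, and HLH-30 partners and longevity factors were followed through 9 lists. The lists held 99 measured genes, taken at the brightest probe set of each gene. With males and without RNAi 8 rose and 10 fell, against 5.60 percent of 17138 genes that rose and 6.86 percent that fell. The falls lay mostly among lysosomal hydrolases and membrane proteins, where 8 of 23 fell and 1 rose, with a list median of -0.18 against -0.01 for all genes. They included the lysosomal lipase gene lipl-5, by -1.28 ± 0.14 (adjusted p = 0.000617), the DNase II gene nuc-1, by -0.78 ± 0.10 (0.0012), and the cathepsin D-like protease gene asp-3, by -0.71 ± 0.13 (0.00613). The mean of the list lay between 7.77 and 7.93 in the 5 arrays with males and between 8.00 and 8.22 in the 6 without. Under the alternatives run, 6 to 9 of the 23 fell in this comparison.

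None of the 19 measured subunits of the v-ATPase, which acidifies lysosomes, passed with males without RNAi, where vha-18 was at 0.54 ± 0.16 (adjusted p = 0.052). In the initiation and nucleation list 1 of 6 rose, epg-9, the counterpart of mammalian ATG101, by 0.32 ± 0.08 (adjusted p = 0.0239), and among conjugation genes 1 of 8 fell, the protease gene atg-4.2, by -0.27 ± 0.08 (0.0454). In the fusion list 2 of 9 rose, the late endosome GTPase gene rab-7, by 0.50 ± 0.12 (0.0217), and the SNARE gene snap-29, by 0.36 ± 0.09 (0.0218). The AMP-activated kinase subunit gene aak-1 rose by 0.57 ± 0.10 (0.00483), the only one of 11 in the TOR and AMPK list. Of 13 HLH-30 partners and longevity factors, skn-1 rose by 0.54 ± 0.12 (0.016), the nuclear export gene xpo-1 by 0.42 ± 0.09 (0.0137) and 1 more gene also rose, while the nuclear receptor gene nhr-80 fell by 0.48 ± 0.10 (0.00934). None of the 5 membrane supply genes and none of the 5 cargo receptor genes passed, the former with epg-4 at 0.19 ± 0.10 and the latter with allo-1 at 0.30 ± 0.11. Calls were lost without replicate 2 or 3 of either group for epg-9 (0.0717 to 0.088), without any 1 of the 11 arrays other than replicate 2 of no RNAi with males and of RNAi without males for atg-4.2 (0.0511 to 0.147), without replicate 1 or 2 of the group without males or replicate 3 with males for rab-7 (0.0753 to 0.0833), without replicate 1 of either group or replicate 3 with males for snap-29 (0.0556 to 0.0853), and without replicate 2 of the group without males or replicate 3 with males for skn-1 (0.0519 to 0.0597). The epidermis markers also moved in this comparison, with a list mean of 4.65 without males and 4.14 with males, and their part was not tested.

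**Figure D4:**
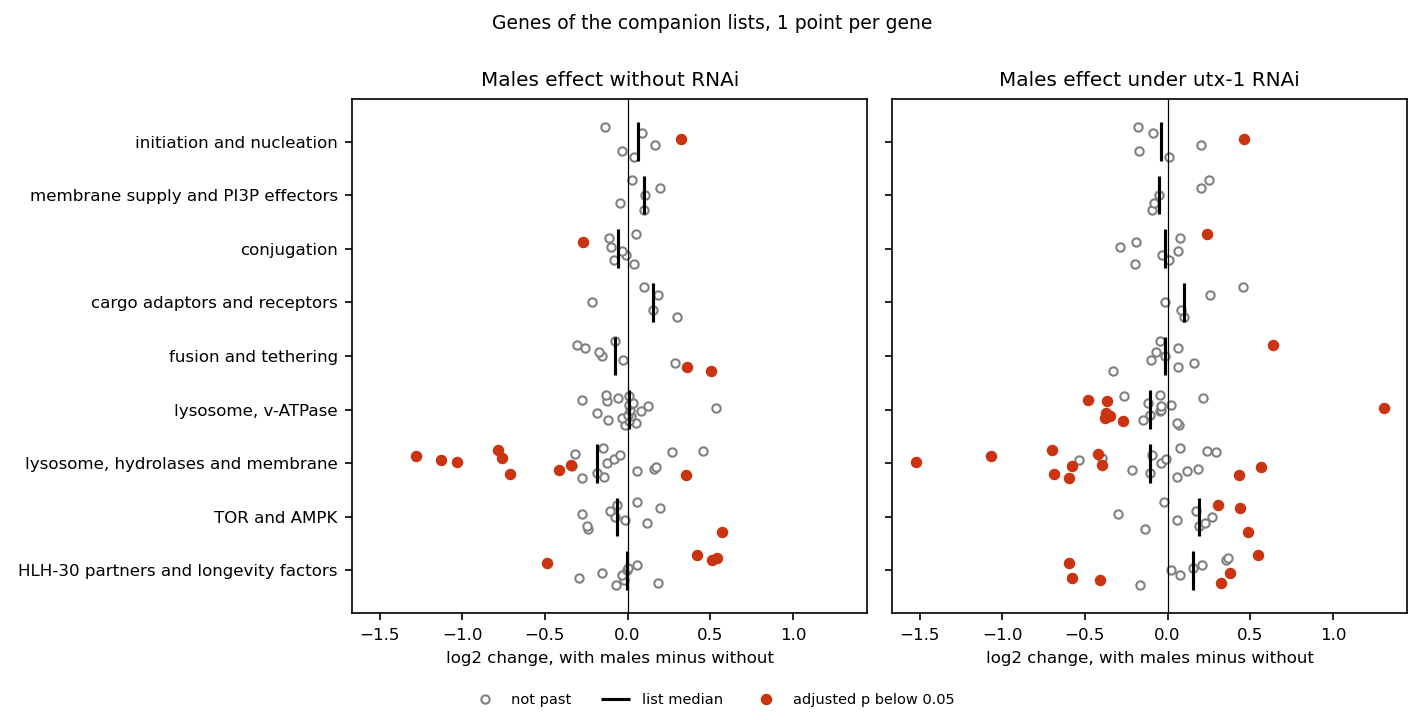
Log2 change with males for each measured gene of the 9 lists, without RNAi (left) and under utx-1 RNAi (right); filled points have an adjusted p below 0.05 and bars mark list medians. The hydrolase list has 8 falls on either side, and the v-ATPase list has 0 falls without RNAi and 6 under utx-1 RNAi.

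Under utx-1 RNAi 12 of the 99 genes rose and 17 fell with males, against 12.3 percent and 9.52 percent of all genes. Lysosomal hydrolases and membrane proteins again had 8 falls, with 2 rises, of 23, including the lipase gene lipl-1, by -1.52 ± 0.24 (adjusted p = 0.000729), lipl-5, by -1.07 ± 0.16 (0.000528), and nuc-1, by -0.70 ± 0.11 (0.000796). The v-ATPase list had 6 falls, among them vha-12 (-0.38 ± 0.08) and vha-5 (-0.37 ± 0.08), and 1 rise, vha-18, by 1.31 ± 0.18 (0.000302). Without replicate 1 of RNAi with males the falls dropped to 4 among hydrolases and 0 among v-ATPase genes, and with centred arrays they were 10 and 10.

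The tethering subunit gene vps-39 rose by 0.64 ± 0.10 (0.000851), epg-9 by 0.46 ± 0.09 (0.00349) and the ubiquitin-like protein gene lgg-3 by 0.24 ± 0.08 (0.0429). Of the TOR and AMPK list 3 of 11 rose, the TORC1 activator gene rheb-1, by 0.44 ± 0.08, aak-1, by 0.49 ± 0.11, and the TORC2 subunit gene rict-1, by 0.31 ± 0.09. Of the partners and longevity factors 3 rose and 3 fell, among them xpo-1 (0.54 ± 0.10), the MXD-like factor gene mdl-1 (-0.58 ± 0.10) and nhr-80 (-0.59 ± 0.11). No membrane supply or cargo receptor gene passed, with epg-6 at 0.25 ± 0.09 and fndc-1 at 0.26 ± 0.11. Without replicate 1 of RNAi with males the calls of xpo-1 (adjusted p = 0.0576), aak-1 (0.126), nhr-80 (0.0504), vha-5 (0.112) and vha-12 (0.0647) were lost, that of rict-1 was lost without any 1 of 4 arrays, both utx-1 RNAi arrays with males and replicates 2 and 3 without males (0.0713 to 0.166), and that of lgg-3 without any 1 of the 11 arrays (0.0501 to 0.348). In this comparison 14 of 14 germ cell and 11 of 11 oocyte and eggshell markers rose, with medians of 3.26 and 4.64, and 6 of 10 muscle markers fell, and their part in the changes of these lists was not tested.

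**Figure D5:**
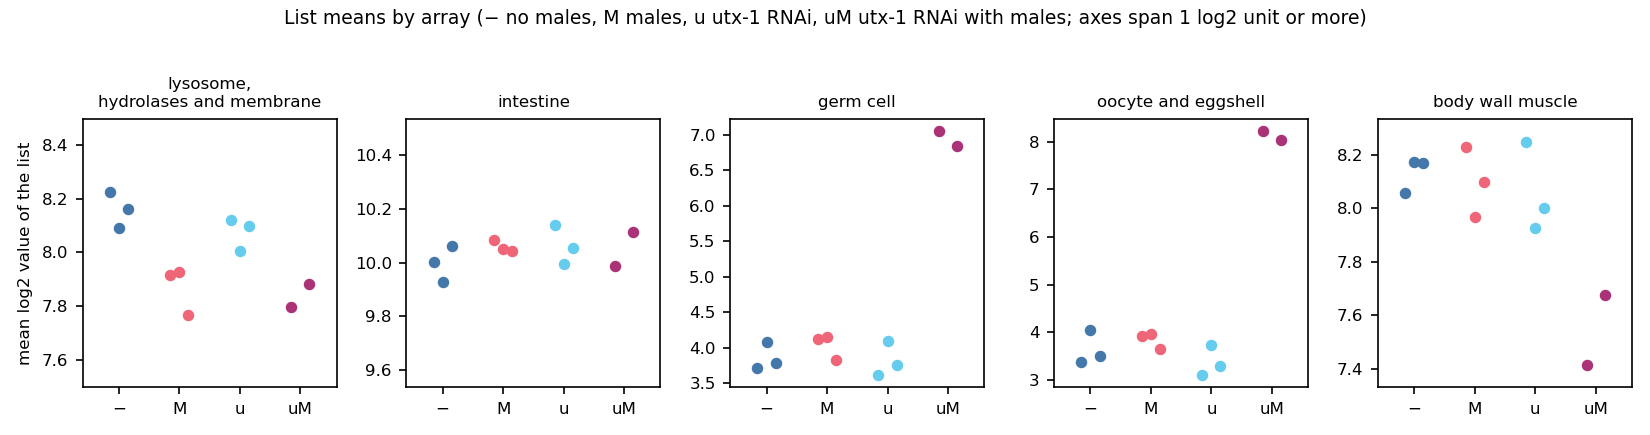
Mean log2 value per array of the lysosomal hydrolase and membrane list and of 4 tissue marker lists, 1 point per array; axes span 1 log2 unit or more. The hydrolase list is at 7.77 to 7.93 in the 5 arrays with males, and the germ cell and oocyte lists are high, at 6.85 to 8.21, in both utx-1 RNAi arrays with males.

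Averaged over both RNAi states, 16 of the 99 genes rose and 19 fell with males, against 14.7 percent and 13.3 percent of all genes, and of the hydrolases and membrane proteins 4 rose and 11 fell. The subunit gene vha-18 rose by 0.92 ± 0.12 (adjusted p = 0.000185), and epg-9 rose by 0.39 ± 0.06 (0.000549). Germ cell markers rose in this average too, 14 of 14, while without RNAi 2 of 14 rose and 1 fell.

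For utx-1 RNAi without males 0 of the 99 genes rose or fell, against 0.0350 percent and 0.134 percent of all genes. The smallest adjusted p was that of epg-9, at -0.46 ± 0.08 (adjusted p = 0.0517), which passed under 4 of 18 alternatives, among them a trended robust prior (0.031) and omission of replicate 3 of no RNAi with males (0.0484). The nearest in the other lists were snap-29 (0.33 ± 0.09, adjusted p = 0.113), the bHLH factor gene mxl-3 (-0.44 ± 0.12, 0.12), allo-1 (0.31 ± 0.11), aak-2 (-0.28 ± 0.10), atg-9 (-0.23 ± 0.12), scav-3 (-0.22 ± 0.09), vha-20 (-0.20 ± 0.08) and lgg-3 (-0.08 ± 0.07), all with an adjusted p above the threshold.

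For utx-1 RNAi with males 6 rose and 8 fell, against 9.38 percent and 5.23 percent. The rises of vps-39 (0.91 ± 0.10), vha-18 (1.10 ± 0.18) and rict-1 (0.50 ± 0.09) held under each alternative run. Those of daf-15 (0.34 ± 0.10), mxl-1 (0.42 ± 0.10) and epg-6 (0.28 ± 0.09) did not hold without some single arrays, for epg-6 any 1 of 9 of the 11. The fall of mdl-1 (-0.34 ± 0.10) was lost without any 1 of 8 of the 11 arrays. The gene epg-9 fell here, by -0.33 ± 0.09 (adjusted p = 0.0313), and also in the average over male states, by -0.40 ± 0.06 (0.00117). The call with males was lost without replicate 2 or 3 of no RNAi with males or replicate 1 of RNAi with males (0.0819 to 0.284). Falls were also seen in skn-1 (-0.57 ± 0.14), vha-5 (-0.34 ± 0.08), vha-10 (-0.33 ± 0.08) and lipl-1 (-0.84 ± 0.24), each lost without replicate 1 of RNAi with males (0.156, 0.192, 0.182 and 0.334). For the interaction 2 genes rose, vps-39 and mxl-1, and 1 fell, rab-7, against 6.86 percent and 1.21 percent. In these last comparisons 14 of 14 germ cell markers were past the threshold as well, and their part was not tested.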

How the data were processed

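The authors computed the deposited log2 values with RMA, per the submitters' processing notes; version and settings are not given in the sources used. RMA shrinks changes of dim probe sets, and those with _s_at or _x_at names may detect related transcripts. From 22625 probe sets 77 controls were left out. Gene symbols of the platform annotation were brought up to date with the RefSeq table of WBcel235, used for names only. In R 4.3.3, limma 3.58.1 fitted the 4 group means to the 11 arrays, with p-values adjusted by Benjamini-Hochberg over 22548 probe sets per comparison and a threshold of 0.05. The number of arrays limits the precision.

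Groups and replicate numbers follow the sample titles; 2 descriptions of utx-1 RNAi samples give another number. Samples of a group came from independent experiments, per the labels. Members and lists were chosen with earlier results of these data known, and the 2 averaged contrasts after the values had been seen. Per list and comparison, up to 3 genes past the threshold with the smallest p may be named, or the gene with the smallest p where 0 passed, and members' nearest genes are named by Pearson's r at brightest probe sets, 5 for hlh-30 and 3 for other genes called in a single RNAi state. Alternatives were a trended robust prior, centring, quantile normalization, a filter at 4, array weights, only the compared groups, a replicate block, single arrays left out and, for lists, the probe set with the smallest p per gene. The procedure was tested on simulated data.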

Additional observations from a re-analysis of the deposited data

Results flagged for a closer look

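In 3 genes of the followed lists the males effect differed between the RNAi states by the interaction test. For vps-39, a subunit of a late endosome tethering complex, the difference of the males effects was 0.94 ± 0.14 (limma, adjusted p = 0.000743). Its values were 6.61, 6.67 and 6.72 without RNAi and males, 6.38, 6.53 and 6.16 with males, 6.60, 6.69 and 6.62 under utx-1 RNAi, and 7.31 and 7.23 under utx-1 RNAi with males, so the last 2 arrays were above all others. For rab-7 the difference was -0.83 ± 0.18 (adjusted p = 0.0143), with 5.90, 5.88 and 6.21, then 6.38, 6.38 and 6.74 with males, 6.61, 6.35 and 6.34 under utx-1 RNAi, and 6.10 and 6.10 under utx-1 RNAi with males. The rab-7 call was lost without replicate 1 of RNAi with males (adjusted p = 0.0551).

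For mxl-1, a bHLH factor gene, the difference was 0.54 ± 0.14 (adjusted p = 0.0363), and the call was lost with centred arrays (0.0745) and without any 1 of 7 of the 11 arrays (0.0519 to 0.119), which were replicate 3 of no RNAi with males, replicates 2 and 3 of no RNAi without males, replicates 1 and 3 of utx-1 RNAi without males and both RNAi arrays with males.

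Outside the followed lists, the males effect also differed between RNAi states for glp-1 191458_s_at, by 1.40 (adjusted p = 0.00463), with 7.22 and 7.03 in the utx-1 RNAi arrays with males against 5.27 to 6.08 in the other 9. For the knockdown target at utx-1 192746_at it differed by 2.37 (adjusted p = 0.0179), with 9.06 and 8.40 under utx-1 RNAi with males against 4.81 to 6.42 under utx-1 RNAi without males. The arrays without RNAi read 11.54 to 13.09 at this probe set, so both values with males were still lower. The utx-1 RNAi effect with males was -4.18 (limma, adjusted p = 1.58e-05).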

How the results depend on the processing

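Over the 15 probe sets and all alternatives, 1753 of 1824 values kept their side of the threshold, 47 lost the call and 24 gained one. Changes of direction were counted only where a value was past the threshold in either fit, and there were 0. In the main fit 2, 2 and 5 of the 15 were called in the males effects without RNAi, under utx-1 RNAi and averaged. In the other contrasts 0 were called, so most of the 1753 were not past the threshold in either fit. The males effect without RNAi had 2661 probe sets past the threshold and 1362 to 2732 with single arrays left out (1362 without replicate 1 of the group without males, 1678 and 1524 without replicates 2 and 3 with males). Under utx-1 RNAi it had 4707 (2671 rose, 2036 fell), 7565 with arrays centred on their medians (2012 rose, 5553 fell; by quantile normalization 2414 and 3238), and 2028 to 4867 with single arrays left out. The utx-1 RNAi effect without males had 37 (8 rose, 29 fell), 96 with a trended robust prior, 64 centred (36 and 28), 93 by quantile normalization (43 and 50), 65 with array weights, 18 from its 2 groups alone, and 5 to 59 with single arrays left out. With males it had 3165 (2021 rose, 1144 fell), 5012 centred (1822 and 3190), 1944 and 1966 by quantile normalization, and 1476 to 3218 with single arrays left out. The interaction had 1725 (1448 rose, 277 fell), 1202 and 1185 centred, 1296 and 733 by quantile normalization, and 1137 to 1706 with single arrays left out. The averaged males contrast had 6032 (3242 rose, 2790 fell), 2487 and 5145 centred, and 4021 to 5855. The averaged utx-1 RNAi contrast had 3307 (1774 and 1533), 1719 and 2263 centred, and 1516 to 3353. The lowest count in each of the 5 contrasts that use utx-1 RNAi with males came without its replicate 1, where the lone array left is assumed to vary like the other groups. Centring lowered the median of all probe sets by 0.12 in the males effect under utx-1 RNAi, where lgg-2 174438_at became 0.11 (adjusted p = 0.228) and sqst-1 171737_x_at 0.16 (0.146), and by 0.11 in the interaction; the causes of these shifts were not tested. With the replicate number as a block the males effect without RNAi had 1552 probe sets past the threshold, that under utx-1 RNAi 3564, the utx-1 RNAi effect 6 without and 2302 with males, the interaction 1303, and the averaged contrasts 4829 and 2176; the single-state calls of atg-7, lgg-2 and sqst-1 and the averaged calls of lgg-1 and lgg-2 174438_at (adjusted p = 0.0501) did not pass. Same-numbered arrays of different groups had r of -0.35 to 0.05 over 15 pairs (median -0.20, against 0.09 over 30 other pairs). Of 11 arrays 0 correlated best with its own number. These deviations are from means of 2 or 3 arrays and mirror each other in the group of 2. The descriptions also give other numbers for 2 samples, so this check cannot tell whether the arrays are paired. The filter at 4 removed 3 dim probe sets (hlh-30 190299_at, bec-1 187789_at and epg-5 186623_at), and a fit to 2 groups alone does not apply to the interaction or the averages. In fits to 2 groups alone all 4 single-state calls were lost, those of atg-7, of lgg-2 174438_at and of sqst-1 171737_x_at in both RNAi states. With the probe set of smallest p per gene, 11 of the 99 list genes rose and 11 fell with males without RNAi, and 13 and 22 under utx-1 RNAi.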
